A study of Mus musculus with 6 samples.

Results

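The genes described here encode the nuclear-made subunits of mitochondrial respiratory complexes II, III, IV and V and cytochrome c, in long-term haematopoietic stem cells (LT-HSC) of wildtype and Irf8 knockout mice. They were taken by symbol: the succinate dehydrogenase genes Sdha to Sdhd, every Uqcr gene with Cyc1, every gene of the Cox4 to Cox8 series, every Atp5 gene and Cycs. The rule found 48 of 18193 genes, with 4 genes of complex II, 9 of complex III, 17 of complex IV, 17 of complex V and 1 of cytochrome c. Cox7b, which also fits the rule, is not analysed here. For each gene the probe set with the highest mean over the 6 arrays was used, which is a choice on level and not on the difference between genotypes.

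Complex II takes electrons from succinate and passes them to ubiquinone, and complex III passes them on to cytochrome c, a small protein that shuttles between membrane complexes. Complex IV, cytochrome c oxidase, hands the electrons to oxygen, and complex V, ATP synthase, makes ATP from the proton gradient that the chain builds up. Resting haematopoietic stem cells are known for relying less on this chain than their dividing progeny, and a shift towards it accompanies their activation.

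The study set 3 arrays of Irf8+/+ cells, labelled wildtype, against 3 arrays of Irf8-/- cells, labelled knockout, and asked which genes differ between stem cells with and without this interferon regulatory factor. Both groups were lineage-, c-kit+, Sca-1+, CD48- and CD150+ bone marrow cells, placed by the labels at 3 weeks and given no treatment. The labels name neither the knockout allele nor the animals behind each array, so p-values measure the spread between these samples. The scarce RNA was amplified over the whole transcriptome before hybridisation to Affymetrix Mouse Genome 430 2.0 arrays, and values are log2 expression as deposited, where a difference of 1 is a doubling.

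Irf8 itself did not separate the groups. Its brighter probe set read 4.98, 6.43 and 5.16 in wildtype replicates 1 to 3 and 4.91, 6.39 and 6.50 in knockout replicates 1 to 3. Nothing in the labels says whether these probes lie in the deleted part, so the signal is no check of the labels. Of the sort markers, Kit read 9.38 to 9.76 in wildtype and 8.09 to 10.46 in knockout, and Slamf1, which encodes CD150, read 5.97 to 9.11 and 4.71 to 9.02. Cd48, which the sort selects against, read 3.13 to 4.54 in wildtype, and in knockout it read 7.60, 9.42 and 3.55, so that replicates 1 and 2 stood high. Ly6a, which encodes Sca-1, is not analysed here. The mean level of 15 measured neutrophil markers of 16 listed ran from 6.26 to 7.33 in wildtype and from 8.21 to 11.02 in knockout, with 6 markers higher in knockout without overlap, as were 6.67% of all genes. Of 4 measured erythroid markers 3 were below 0, with a median difference of -1.08 and a mean level of 6.37 to 7.29 in wildtype and 5.55 to 6.65 in knockout. Among them Klf1 was lower without overlap and Tfrc higher without overlap, as were 4.25% and 6.67% of all genes. Among the stem cell genes, Procr read 10.24, 10.63 and 10.77 in wildtype and 10.21, 9.80 and 9.38 in knockout. The part of these marker differences in the results below was not tested. In whole-population RNA, fewer cells of a type and less RNA per cell cannot be told apart.

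The promoters of these genes held letters read by regulators of nuclear-encoded mitochondrial genes more often than all promoters did. The choice by symbol did not use this property. RefSeq windows of 300 bases (250 before the transcription start and 50 after, GRCm38.p6) were matched by symbol for 36 of the 48 genes, giving 39 windows. The core letters of GABP sites, CCGGAAG, were found on either strand in 13 of the 39 windows (33.3%) against 8.86% of all 32851 windows. The NRF1 letters, GCGCA and GCGC with any base between, were found in 10 windows (25.6% against 4.6%). AAGATGGCG of YY1 sites was found in only 2 (5.13% against 1.4%). The GC content of the windows had a median of 56.7% for these genes and 52.7% for all. At least 1 of the GABP and NRF1 letter strings lay in 19 windows (48.7%), against 12.6% of all. The 150 bases before the start are shown for 4 genes on which the results below turn, 1 higher and 3 lower in knockout, each on the minus strand and written towards the start, with GABP or NRF1 letters in capitals. Cox7c lies at chr13:86046796-86046945, Uqcr10 at chr11:4704345-4704494, Uqcrh at chr4:116075071-116075220 and Atp5k at chr5:108434400-108434549.
Cox7c: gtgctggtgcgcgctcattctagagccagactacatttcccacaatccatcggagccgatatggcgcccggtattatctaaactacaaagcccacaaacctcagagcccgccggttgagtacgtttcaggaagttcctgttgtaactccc
Uqcr10: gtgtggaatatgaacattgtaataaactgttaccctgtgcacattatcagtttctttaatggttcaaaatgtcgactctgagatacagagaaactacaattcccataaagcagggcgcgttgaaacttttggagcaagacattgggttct
Uqcrh: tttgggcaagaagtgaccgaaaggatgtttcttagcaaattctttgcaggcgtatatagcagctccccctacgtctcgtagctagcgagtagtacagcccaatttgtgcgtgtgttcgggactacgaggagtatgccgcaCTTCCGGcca
Atp5k: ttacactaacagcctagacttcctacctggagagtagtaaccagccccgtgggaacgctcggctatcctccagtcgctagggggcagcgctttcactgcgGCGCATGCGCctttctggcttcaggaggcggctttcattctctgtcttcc
Uqcrh holds the GABP letters at bases -10 to -4 and Atp5k the NRF1 letters at -50 to -41, counted from the start. Atp5k has a further GABP match at 13 to 19, after the start and outside the printed stretch. The Cox7c and Uqcr10 windows hold neither string, and among the 8 genes lower in knockout without overlap, the windows of Uqcrh, Atp5k, Atp5l and Cox8a hold at least 1. Over all windows of the 36 matched genes 48.7% do, and a gene without a match may have had no window. A match describes letters and not a bound site.

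Of the 48 genes 28 had lower means in knockout, 1 read far higher, and 0 passed the test over all genes. The median difference, knockout minus wildtype, was -0.10 on the log2 scale, with 28 genes below 0 and 20 above. Over all 18193 genes the median was 0.07 with 43.4% below 0, and over the 9096 genes above the median gene level of 5.81, where 45 of the 48 lie, it was -0.05 with 52.9% below 0. In limma with Benjamini-Hochberg adjustment 0 of the 48 genes passed an adjusted p of 0.05, as did 0 of all genes (0.0%). At an unadjusted p under 0.05, 4 genes read lower (Uqcr10, Cox5b, Uqcrh and Atp5g1) and 1 higher (Cox7c), where 2.44% of all genes were lower and 2.4% higher. That is 8.33% and 2.08% of the 48. The lower count was 0 without any 1 of the 3 wildtype arrays and 8 without knockout replicate 1, and it was 1 after centring arrays on their median or quantile normalization.

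Counted by arrays, 8 genes had all 3 knockout values under all 3 wildtype values. That was 16.7% of the 48, against 4.25% of all genes. All 8 were among the 45 genes above the median level, 17.8% of them, where the share over all genes above that level was 6.3%. The median SE of the 45 was 0.37, against 0.64 for all genes above that level, so these shares compare genes of unlike spread. Only 2 genes, Cox7c and Cox8b, had all knockout values above all wildtype values, 4.17% of the 48, against 6.67% of all genes. Above the median level this held for Cox7c alone, 2.22% of the 45, against 4.89% of all genes above it. Cox7c passed that level by its mean over the 6 arrays, with its wildtype arrays under it. The 8 lower genes belong to complex III (Uqcrh, Uqcr10), complex IV (Cox8a, Cox7a2l, Cox5b) and complex V (Atp5g1, Atp5k, Atp5l). With arrays centred on their median 6 of the 8 stayed apart, and averaging the probe sets of a gene 4 did. Taking a probe set with no a, s or x suffix in its name, where a gene had one, 4 also did. Cox7a2l had none and kept its own. Uqcrh and Cox8a overlapped in probe sets that were also bright, with wildtype means of 10.7 and 10.1 and differences of -0.23 and -0.67. Atp5g1 and Cox5b moved to dim probe sets, with wildtype means of 4.07 and 4.29. This count therefore does not show the effect of the suffix alone, and it does not measure cross-hybridisation. Without knockout replicate 1 the number lower without overlap was 16 (9.16% of all genes) and without knockout replicate 3 it was 14 (10% of all genes). Without knockout replicate 2 it was 10 (7.99%).

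**Figure D1:**
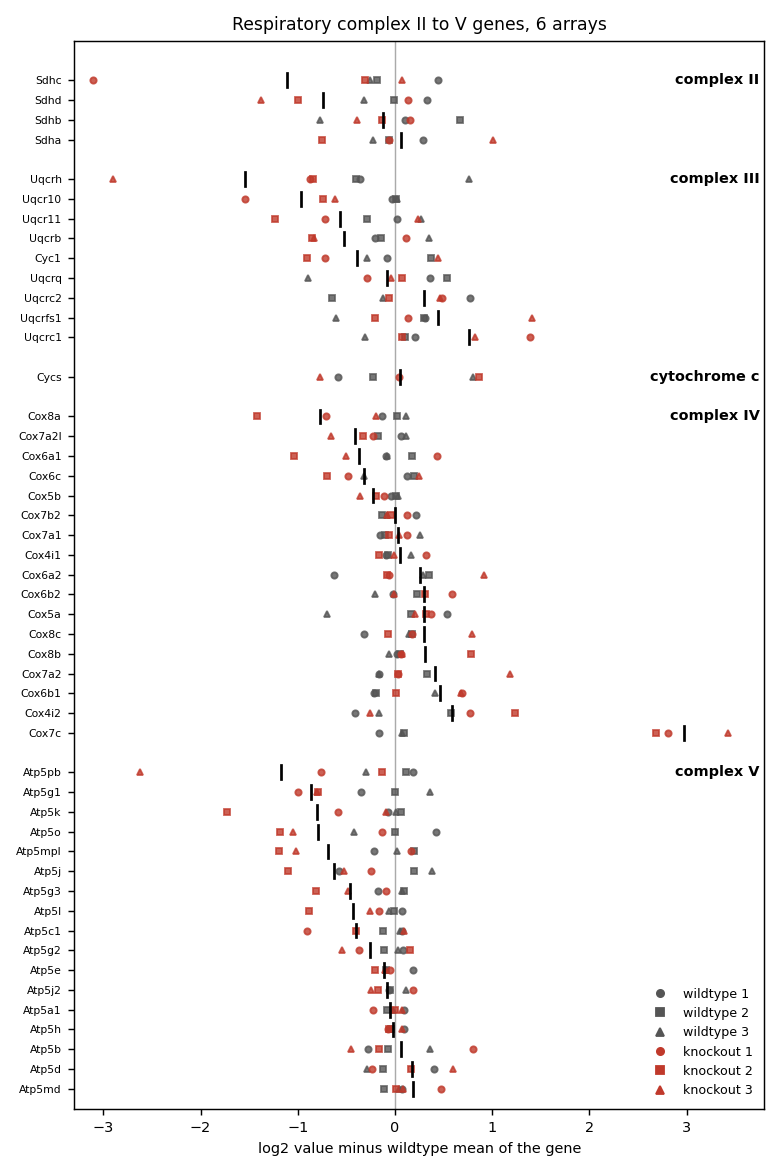
Each of the 48 genes is a row, grouped by complex, and each symbol is 1 array's log2 value minus the gene's wildtype mean (grey wildtype, red knockout, shape for the replicate number), with a black bar at the knockout mean. The Cox7c knockout arrays stand far right of all others, while most complex V rows have their black bar left of 0.

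The complex II genes overlapped between genotypes. Complex II had a median difference of -0.43 over 4 genes, with 3 below 0, and none of the 4 had groups apart. Sdhc, a membrane anchor of the complex, read 11.09, 10.46 and 10.39 in wildtype and 7.54, 10.34 and 10.71 in knockout. Its difference of -1.11 (SE 0.84, adjusted p = 0.887 in limma) came with 1 low array, knockout replicate 1, and knockout replicate 3 lay inside the wildtype range. The other probe set of Sdhc differed by 0.39, in the opposite direction. Sdhd, the other anchor, read 9.51 ± 0.33 in wildtype and 8.76 ± 0.79 in knockout (SD, n = 3 each), with knockout replicates 2 and 3 under every wildtype array and replicate 1 within them. Sdha, the flavoprotein that oxidises succinate, and Sdhb, the iron-sulphur subunit, differed by 0.07 (SE 0.45) and -0.12 (SE 0.48), and a further probe set of Sdha differed by -0.70.

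In complex III the genes of the small subunits had differences below 0, and those of the core subunits mostly above 0. Uqcr10, a small subunit of the complex, read 10.97, 11.02 and 11.03 in wildtype and 9.46, 10.26 and 10.38 in knockout. The wildtype arrays lay within a narrow band and every knockout array lay at least 0.59 below it. The difference was -0.97 (SE 0.33, 95% interval -1.75 to -0.19, adjusted p = 0.887 in limma). All 3 probe sets of Uqcr10 were lower without overlap, with differences of -0.97, -1.40 and -2.64.

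Uqcrh, the hinge protein between cytochrome c1 and cytochrome c, read 11.35, 11.31 and 12.47 in wildtype and 10.84, 10.86 and 8.81 in knockout. The groups did not overlap, but wildtype replicate 3 was high and knockout replicate 3 low within their groups. The difference of -1.54 (SE 0.63, adjusted p = 0.887 in limma) was -0.23 in the other probe set, where the groups overlapped. Uqcrb, a small subunit at the ubiquinone site, differed by -0.52 (SE 0.32), Uqcr11 by -0.57 (SE 0.48) and Uqcrq by -0.09 (SE 0.47). All 5 small-subunit genes were thus below 0, with a median of -0.57, though Uqcrq was at 0.11 with the mean of its probe sets. The core proteins Uqcrc1 and Uqcrc2 differed by 0.76 (SE 0.46) and 0.30 (SE 0.39), the Rieske iron-sulphur protein Uqcrfs1 by 0.45 (SE 0.63) and cytochrome c1, Cyc1, by -0.39 (SE 0.49). These 4 had a median of 0.37. The split into small and core subunits was made with the values known, and the difference between the sets was not tested. Cycs, cytochrome c, read 9.45 to 10.84 in wildtype and 9.26 to 10.90 in knockout, a difference of 0.05 (SE 0.56), with its other probe sets between -0.60 and -0.05.

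**Figure D2:**
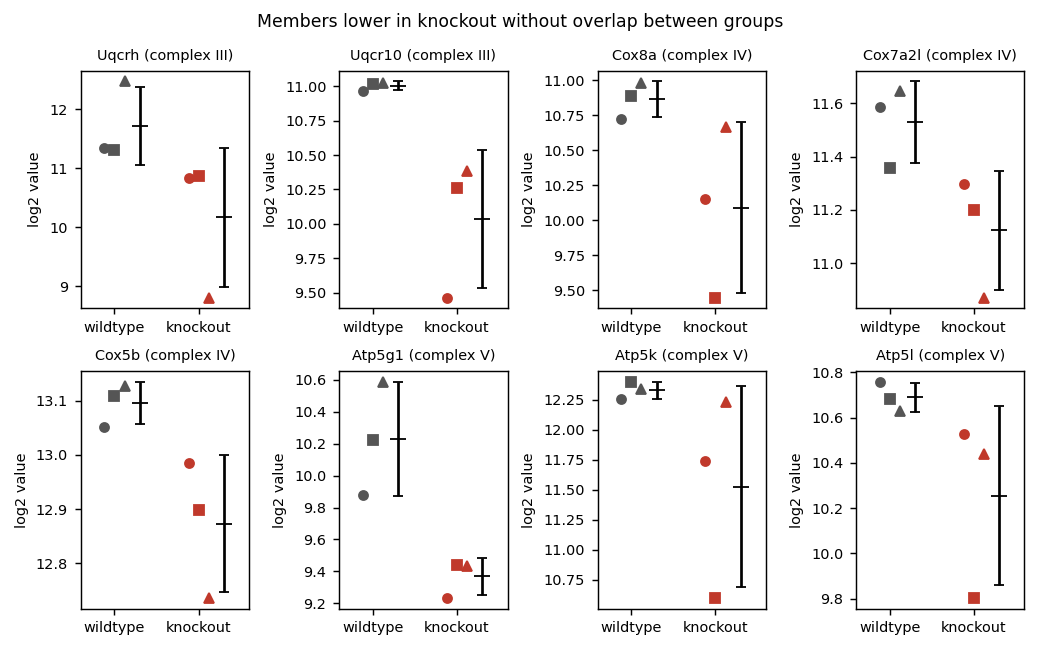
Log2 values of the 8 genes with all knockout arrays (red) under all wildtype arrays (grey), with the mean and SD of 3 arrays beside the points (shape for the replicate number). The axes differ between panels and do not start at 0. The gap between groups is 0.59 for Uqcr10 and 0.02 for Atp5k.

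Complex IV held the 1 gene with a large difference. Cox7c, a small nuclear-encoded subunit of cytochrome c oxidase, read 4.72, 4.98 and 4.95 in wildtype and 7.70, 7.57 and 8.31 in knockout. Wildtype arrays lay under the median gene level of 5.81 and knockout arrays above it, and the closest arrays of the groups were 2.59 apart. The difference was 2.97 (SE 0.41, 95% interval 2.00 to 3.95), which did not pass over all genes (adjusted p = 0.438 in limma). A second Cox7c probe set read 2.26, 2.52 and 2.83 in wildtype and 4.69, 7.07 and 5.94 in knockout, a difference of 3.36 with the groups again apart. Over the 14 alternative settings the difference ran from 2.75 without knockout replicate 3 to 3.36 with the probe set that has no a, s or x suffix. As the groups were apart, leaving out or weighting arrays could not have turned its sign. The brighter probe set is of a type whose probes can match several transcripts. Only values summed over the probes of a set were used. Whether the difference in signal is one in the amount of Cox7c RNA, or in the sequence that the probes read, was therefore not tested.

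**Figure D3:**
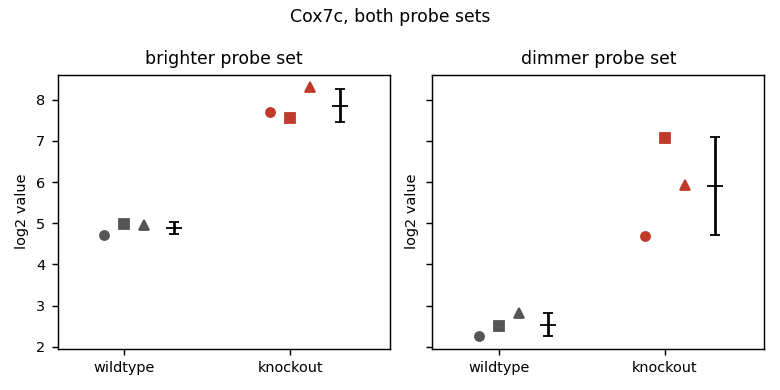
Log2 values of the brighter and the dimmer Cox7c probe set in 3 wildtype (grey) and 3 knockout (red) arrays, with mean and SD beside the points and shape for the replicate number. In both panels every knockout array lies above every wildtype array, with a wider knockout spread in the dimmer probe set.

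The other widely expressed complex IV genes had differences between -0.78 and 0.46, with 3 of them lower without overlap. Cox5b, a subunit on the matrix side, read 13.05, 13.11 and 13.13 in wildtype and 12.98, 12.90 and 12.74 in knockout. The gap between the groups was only 0.07, but within-group spread was also small, and the difference was -0.22 (SE 0.09, 95% interval -0.43 to -0.01). Without the mean-variance trend in limma, the SE of Cox5b was 0.20 and the unadjusted p 0.30. Its 4 probe sets above the median gene level were all lower without overlap, at -0.21 to -0.34, whereas a dim one differed by 0.33 and another by -0.06. Cox7a2l, which joins complexes III and IV into supercomplexes, read 11.59, 11.36 and 11.65 in wildtype and 11.30, 11.20 and 10.87 in knockout. All 3 of its probe sets were lower without overlap, at -0.41, -0.57 and -0.39.

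Cox8a, a small membrane subunit, read 10.73, 10.89 and 10.98 in wildtype and 10.15, 9.45 and 10.66 in knockout. Knockout replicate 3 came within 0.06 of the lowest wildtype array, and the difference was -0.78 (SE 0.37). A further bright probe set of Cox8a differed by -0.67 and a dim one by -0.86, both with overlapping groups. Cox6a1 and Cox6c differed by -0.37 (SE 0.35) and -0.31 (SE 0.30), and both had knockout arrays above and below the wildtype range. Cox4i1, the regulatory subunit that binds ATP, differed by 0.05 (SE 0.25), Cox5a by 0.30 (SE 0.37), Cox7a2 by 0.42 (SE 0.35) and Cox6b1 by 0.46 (SE 0.26). A second probe set of Cox6b1 was higher without overlap, at 0.43. Over these 10 widely expressed genes the median difference was -0.09, with 5 below 0, and the mean of 0.21 took its sign from Cox7c.

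The tissue-restricted isoforms of complex IV are alternative subunits for tissues such as heart, skeletal muscle, lung and testis. Cox7a1 (muscle) had group means of 3.56 (wildtype) and 3.59 (knockout), and Cox7b2 (testis) of 2.31 and 2.31, all well under 5.81. Cox8b (muscle) read 4.82, 4.85 and 4.74 in wildtype and 4.87, 5.59 and 4.88 in knockout, above by a gap of only 0.02, and its difference of 0.31 (SE 0.29) rested on knockout replicate 2. Cox8c (testis) read 5.71 in wildtype and 6.00 in knockout. The muscle isoform Cox6a2 and the lung isoform Cox4i2 read 7.05 and 6.49 in wildtype and differed by 0.26 (SE 0.56) and 0.58 (SE 0.57). Cox6b2 (testis) read 8.76 ± 0.22 in wildtype and 9.06 ± 0.30 in knockout (SD, n = 3 each). All 7 isoforms were above 0, with a median of 0.29, where 43.4% of all genes were below 0. However, 0 had an unadjusted p under 0.05, and the sign of Cox7a1 and Cox7b2 turned under quantile normalization. A second probe set of Cox8c differed by -0.13, and a second one of Cox6a2 was higher without overlap at 0.67. The median of all 17 complex IV genes was 0.26, and 0.04 without knockout replicate 3.

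Complex V was the complex with the most genes below 0, 14 of 17, and a median difference of -0.40. With arrays centred on their median 13 were below 0. Of the 5 genes of the F1 head, which makes ATP, 4 had differences between -0.12 and 0.18. Atp5a1, the alpha subunit, differed by -0.05 (SE 0.12), Atp5b, the catalytic beta subunit, by 0.06 (SE 0.38), Atp5d (delta) by 0.18 (SE 0.28), Atp5e (epsilon) by -0.12 (SE 0.13) and Atp5c1 (gamma) by -0.40 (SE 0.28). For Atp5a1 the 95% interval was -0.33 to 0.23, but 2 dimmer probe sets of the gene were lower without overlap, at -0.12 and -0.80. Dimmer probe sets of Atp5d and Atp5c1 differed by -0.50 and -1.01 with overlapping groups. In that of Atp5c1 wildtype replicate 3 alone was high, at 7.90, and all other arrays read 4.36 to 5.13.

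The genes of the rotating c ring were all below 0. Atp5g1 read 9.88, 10.23 and 10.59 in wildtype and 9.23, 9.44 and 9.43 in knockout. All knockout arrays lay in a narrow band 0.44 under the lowest wildtype array, and the difference was -0.86 (SE 0.36, 95% interval -1.72 to -0.01, adjusted p = 0.887 in limma). Atp5g3 differed by -0.47 (SE 0.26) and Atp5g2 by -0.25 (SE 0.27). The 3 genes encode the same mature c subunit with different import sequences.

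The stalk genes, which hold the head against rotation, were also all below 0, except that Atp5h turned to 0.02 with arrays centred. Atp5o, the oligomycin sensitivity protein, read 11.73, 11.30 and 10.89 in wildtype and 11.17, 10.13 and 10.25 in knockout. The groups overlapped in this probe set through knockout replicate 1, with a difference of -0.79 (SE 0.37), and did not overlap in the other, at -0.96. Atp5pb, the b subunit, read 10.88, 10.81 and 10.41 in wildtype and 9.94, 10.57 and 8.08 in knockout, a difference of -1.17 (SE 0.65) with knockout replicate 3 lowest, and its other probe set differed by -0.47. Atp5j (coupling factor 6) differed by -0.63 (SE 0.39) and Atp5h (d subunit) by -0.02 (SE 0.11).

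Among the membrane accessory genes, Atp5k, the e subunit of the synthase dimer, read 12.26, 12.40 and 12.34 in wildtype and 11.74, 10.60 and 12.23 in knockout. Knockout replicate 3 was level with the lowest wildtype array (gap 0.02) and replicate 2 was far below, and all 3 probe sets were lower without overlap, at -0.81, -0.76 and -0.60. Atp5l, the g subunit beside it, read 10.76, 10.68 and 10.63 in wildtype and 10.53, 9.80 and 10.44 in knockout, a difference of -0.43 (SE 0.30). Atp5mpl differed by -0.68 (SE 0.37), Atp5j2 (f subunit) by -0.08 (SE 0.16) and Atp5md by 0.19 (SE 0.20). The grouping by place in the synthase was made with the values known and carries no test.

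**Figure D4:**
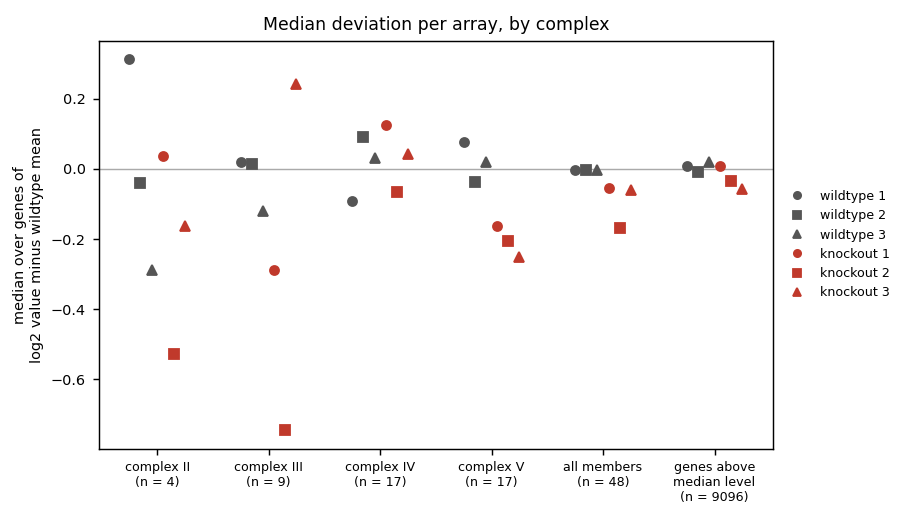
Median over genes of the log2 value minus the gene's wildtype mean, for each array, by complex and for all genes above the median level (grey wildtype, red knockout, shape for the replicate number). Complex V lies at -0.16, -0.20 and -0.25 in knockout replicates 1 to 3, while complex III runs from -0.74 to 0.24 among the knockout arrays.

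By array, complex V gave the most even medians within knockout. They were -0.16, -0.20 and -0.25 in replicates 1 to 3, against -0.04 to 0.08 in wildtype. Complex III read -0.29 and -0.74 in knockout replicates 1 and 2 and 0.24 in replicate 3. Complex II read 0.04, -0.53 and -0.16, within the wildtype range of -0.29 to 0.31 except for replicate 2. Complex IV read 0.12, -0.07 and 0.04. Over all 48 genes knockout replicate 2 was lowest, at -0.17 with 34 genes under their wildtype mean, and 25 of the 48 genes lay under all wildtype arrays there, against 17 and 20 in replicates 1 and 3. Over all genes these shares were 27.6% in knockout replicate 2, 23.8% in replicate 1 and 21.1% in replicate 3. Leaving out wildtype replicate 3 gave a complex II median of -0.71 and leaving out knockout replicate 1 gave -0.19. For complex III the median became -0.16 when knockout replicate 2 was left out, and -0.21 when wildtype replicate 2 was.

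Where a gene had several probe sets, they mostly gave the same direction. The 48 genes had 96 probe sets, of which 75 lay above the median gene level, 52 of them with a difference below 0. Of the 23 genes with more than 1 such probe set, 14 were lower in all and 3 were higher in all (Uqcrc2, Cox7a2 and Cox6b1). The 6 with mixed directions were Sdha, Sdhc, Cycs, Cox5a, Cox6a1 and Atp5d. Probe sets of a gene read the same RNA and are not replicates.

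**Figure D5:**
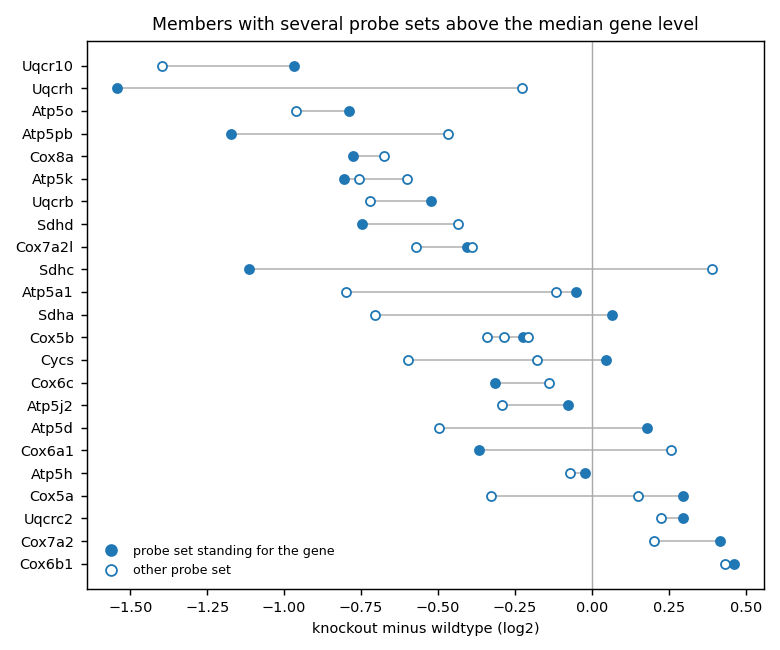
Knockout minus wildtype difference (log2) of every probe set above the median gene level, for the 23 genes with more than 1, with the probe set that stands for the gene filled and a line joining probe sets of a gene. Rows are ordered by mean difference, and the longest line is that of Sdhc, from -1.11 to 0.39.

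Genes that build the complexes and regulate their transcription gave no adjusted call either. Of 30 measured assembly factors 19 were below 0, with a median of -0.18. At an unadjusted p under 0.05, 1 was lower and 0 higher, where 2.44% of all genes were lower and 2.4% higher. Cox16, an assembly factor of complex IV, read 7.15, 8.65 and 8.27 in wildtype and 4.99, 5.79 and 6.02 in knockout. The groups did not overlap and the difference was -2.42 (SE 0.58, adjusted p = 0.887 in limma). However, the difference was -0.46 when the probe sets of Cox16 were averaged and -0.47 with no a, s or x suffix. Cox11, which delivers copper to complex IV, differed by -2.04 (SE 1.03) with overlapping groups, and by -1.09 when its probe sets were averaged. The 17 measured complex IV assembly factors had a median of -0.28, with 13 below 0. That median was -0.66 without wildtype replicate 3 and -0.06 without wildtype replicate 1.

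The assembly factors of the other complexes showed no common direction. Those of complex II had a median of -0.25 over 4 genes, with Sdhaf3 at -1.53 (SE 0.90; -0.24 when its probe sets were averaged) and Sdhaf1 at -0.53 (SE 1.35). Those of complex III had a median of 0.04 over 6, with Uqcc3 at -1.12 (SE 0.69) and Lyrm7 at 0.30 (SE 0.31). Those of complex V had 0.05 over 3, with Tmem70 at -1.40 (SE 0.70) and Atpaf1 at 1.24 (SE 0.89).

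The 12 transcriptional regulators had a median of 0.03, with 6 below 0. Of these 12, 1 was lower and 0 higher at an unadjusted p under 0.05 (2.44% and 2.4% of all genes), and 2 were lower without overlap (4.25% of all genes). Tfb2m, a transcription factor of the mitochondrial genome, read 7.44, 9.14 and 8.31 in wildtype and 7.20, 6.86 and 5.55 in knockout. The groups did not overlap and the difference was -1.76 (SE 0.70, adjusted p = 0.887 in limma). Gabpb1, a GABP subunit named here after its values were seen, also read lower without overlap, at 8.61, 8.92 and 8.70 in wildtype and 7.91, 8.35 and 4.62 in knockout. The coactivator Ppargc1a had group means of 3.12 (wildtype) and 3.57 (knockout), both well under 5.81. The median of the regulators was -0.27 without knockout replicate 1.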

How the data were processed

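The deposited table held log2 expression values of 45037 probe sets on 6 arrays, which the authors made with RMA, Affymetrix Expression Console and Partek, named without versions or settings per the submitters' processing notes. RMA normalizes between arrays and compresses differences of dim probe sets. Probe sets naming 1 gene (34945) were used, 1 per gene by highest mean, and those naming several (932) or unnamed (9160) were left out. Symbols were checked by Entrez number against RefSeq, and 34741 matched. Array medians over genes ran from 5.65 to 5.73.

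Knockout was compared with wildtype over all 18193 genes in limma 3.58.1 (R 4.3.3), with lmFit, eBayes and a mean-variance trend, and Benjamini-Hochberg adjustment over all genes. Intervals are the fit's at 95%. The number of arrays limits precision: tested on simulated data with 200 of 18193 genes changed per run, the fit called 4.8% of genes changed 2-fold, 48.8% at 8-fold and 62.8% at 16-fold. Genes named are those with groups apart, the 3 smallest p per complex, Cox7c, the restricted isoforms with partners and 2 per pathway list; other members are given as values. Members, lists and tests were chosen with earlier results of these data known. Alternatives covered moderation, array weights, probe set choice, level, scaling, a replicate block and leaving out each array; counts of groups apart under them were added after the data were seen. Tables and figures used Python 3.11.15 with matplotlib 3.10.9, pandas 2.3.3 and numpy 2.4.6.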

Additional observations from a re-analysis of the deposited data

How the results depend on the processing

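Over 14 alternative settings, 0 of the 48 genes passed the adjusted threshold, and of 36 named genes 28 kept their direction throughout. For genes with groups apart, leaving out or weighting arrays could not have turned the direction. The 1 gene of all 18193 that passed did so with the mean of probe sets (Zfp229, chosen after its value was seen). Genes at an unadjusted p under 0.05 numbered 528 among those above the median level, against 880 overall. The number of the 48 at an unadjusted p under 0.05, 5 in the fit reported, was 3 without the mean-variance trend and 3 with the mean of probe sets. It was 2 with probe sets lacking an a, s or x suffix and 3 among genes above the median level. With arrays centred it was 2, with quantile normalization 2, and leaving out an array 1 to 9. With array weights the median over the 48 genes was -0.15, that of complex IV 0.15 and that of complex V -0.46. In the setting with probe sets lacking a suffix, genes that had only suffixed ones kept them. There the median over the 48 was -0.17, that of complex V -0.34, Cox5b 0.33 and Cycs -0.60. With the mean of probe sets complex IV was 0.051, the regulators -0.14 and Cycs -0.20, and above the median level the regulators were -0.10. Quantile normalization gave -0.041 for Cox7a1 and -0.037 for Cox7b2.

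Leaving out an array gave ranges of -0.19 to -0.093 for the 48 genes, -0.71 to -0.19 for complex II, -0.44 to -0.16 for complex III, 0.043 to 0.33 for complex IV, -0.45 to -0.29 for complex V, -0.66 to -0.064 for complex IV assembly and -0.27 to 0.025 for the regulators. Named genes that turned direction ranged from -0.084 to 0.16 for Cox4i1, -0.071 to 0.43 for Cox6a2, -0.046 to 0.16 for Cox7a1, -0.063 to 0.11 for Cox7b2, -0.36 to 0.45 for Cycs, -1.86 to 0.79 for Sdhaf1 and -0.51 to 0.21 for Sdhb.

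The replicate numbers shared by both groups did not pair the arrays: deviations from the group means of same-numbered arrays correlated at -0.02, -0.01 and -0.01. With the replicate number as a block 3 of the 48 genes had an unadjusted p under 0.05 and 0 an adjusted one, and Cox7c differed by 2.97 (SE 0.45, adjusted p = 0.889 in limma). The causes of these shifts were not tested. Cox8b, Cox7a1, Cox7b2, Ppargc1a, Sdhaf3 and Lyrm7 lie under the median level and have no value among genes above it.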
